A study of Mus musculus with 9 samples.

Results

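The nuclear genes that encode the proteins of the mitochondrial ribosome were followed through RNA-seq libraries of mouse testis. A gene was taken when its Ensembl identifier carried a protein-coding symbol that starts with Mrpl or Mrps and a digit, and 78 of the 56691 genes in the count table met this rule. Of these, 49 are Mrpl genes, named for the large subunit, and 29 are Mrps genes, named for the small subunit. They lie on 17 chromosomes, with 11 on chromosome 11, 8 on chromosome 17 and 7 on chromosome 6.

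Mitochondria translate the few messenger RNAs of their own genome on a separate ribosome, whose ribosomal RNAs come from mitochondrial DNA and whose proteins are all made in the cytosol and imported. Some of these proteins descend from the bacterial ribosome and others exist only in mitochondria. The products of mitochondrial translation are core subunits of the oxidative phosphorylation complexes, so the family is active in every respiring tissue, the testis included. The symbol does not always give the position: the Mrps30 and Mrps18a proteins sit in the large subunit, and the Mrps36 protein is a part of the 2-oxoglutarate dehydrogenase complex.

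The libraries were made from polyadenylated RNA of testes taken on postnatal day 7, an age at which spermatogonia and immature Sertoli cells fill the cords. The 9 libraries form 3 groups of 3: a double knockout without Gm1142 and Gm4779 (DKO, Gm1142-/- Gm4779-/-), a group labelled as a knockout of Gm1142 alone (Gm1142KO, Gm1142-/-), and wild type (WT). Strain, the way the alleles were made and whether animals were pooled are not given in the sources used here, and no source says that replicates were separate animals, so a p-value below measures the spread between these libraries, which may be technical. By its design the study compares testis RNA after loss of Gm1142 alone, and after loss of both genes, with that of WT.

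Counts of the 2 targets check the labels. Gm1142 had 0 counts in each of the 3 DKO libraries, 65, 46 and 50 counts in the libraries labelled Gm1142KO, and 56, 50 and 41 counts in WT. Gm4779 had 0 counts in each DKO library, 88, 61 and 59 counts in the libraries labelled Gm1142KO, and 42, 48 and 53 counts in WT. The DKO libraries thus lacked reads of both targets, while reads of Gm1142 were not reduced in the libraries labelled Gm1142KO (log2 fold change 0.25 against WT, adjusted p 0.624 in edgeR's quasi-likelihood test, described below). The counts therefore do not bear out that label, and every direction below that involves this group rests on the label alone. Gene counts do not show whether an allele that still gives transcripts is intact.

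Total gene counts ran from 4370124 to 8359594 in DKO, from 4597447 to 5243756 in the libraries labelled Gm1142KO and from 4514237 to 5091624 in WT, and DKO replicate 2 was the deepest. Levels below are CPM, counts scaled to a common library size, with sizes adjusted by the TMM method. Levels compared between genes are RPKM, which are CPM per kilobase of exon, with all annotated exons of a gene merged. A count of 0 in a library allows a level of up to 0.336 to 0.762 CPM, a limit of 3 counts that covers counting error only. Testis markers were present in every group: Ddx4 and Dazl of germ cells, Sox9, Amh and Wt1 of Sertoli cells and Cyp17a1 of Leydig cells. Replicate 2 of the libraries labelled Gm1142KO had the lowest scaling factor (0.856) and the largest share of counts from mitochondrially encoded genes (38.9%), and the members' counts of calls and medians that involve this group are given with and without it. Fewer cells of a type and less RNA per cell cannot be told apart in such bulk samples.

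In WT, the family covered a wide range of levels. Mrpl24, a large subunit protein with a bacterial counterpart, had the highest level per length in WT, 124 ± 6.85 RPKM (SD, n = 3). Mrpl37, a large subunit protein found only in mitochondria, followed at 34.9 ± 2.16 RPKM, and Mrpl52 of the large subunit had 29.7 ± 2.56 RPKM. The small subunit proteins Mrps15 and Mrps5 had 29.4 ± 1.67 and 26.4 ± 1.09 RPKM. Mrpl24 stood clear of the other 4 by more than their SD, whereas Mrpl52 and Mrps15 were within 1 SD of each other.

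At the low end, Mrps34 had 1.29 ± 0.156 RPKM in WT, Mrpl17 1.31 ± 0.588 RPKM and Mrpl19 1.90 ± 0.443 RPKM. Mrps25 had 2.06 ± 0.360 RPKM and Mrpl48 2.10 ± 0.477 RPKM in WT. Mrps34 and Mrpl17 lay within 1 SD of each other, and so did Mrpl19, Mrps25 and Mrpl48. This order depends on the merged exon length, which was 7605 bases for Mrpl17 and 8152 for Mrpl48, beside a member median of 2394. By CPM Mrps34 was also the lowest tested member in WT, at 2.67 CPM, whereas Mrpl17 had 9.96 CPM and Mrpl48 17.1 CPM. Mrpl34, at 3.07 CPM, was lower than both. Which transcripts were in use was not tested. Mrpl53 was at 0 counts in all 9 libraries. Its exons overlap those of Gm42688 on the same strand and Ccdc142os on the opposite strand over 88.0% of its 790 exonic bases. The part of this overlap in the 0 counts was not tested, and no level of Mrpl53 is inferred.

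The median of the members in WT was 8.28 RPKM, with 9.47 RPKM for Mrpl genes and 7.08 RPKM for Mrps genes. On the CPM scale the tested members ran from 2.67 to 279 CPM in WT, and their median of 19.3 CPM was close to the 16.5 CPM of all tested genes. The coefficient of variation between the libraries of a group had a median over members of 13.5% in DKO, 15.8% in the libraries labelled Gm1142KO and 11.1% in WT. Exons of 33 members overlap those of another gene, and for 7 members this covers more than 25% of the exonic bases, among them Mrps34 (77.8%), Mrps25 (69.8%), Mrpl19 (36.0%) and Mrpl24 (26.3%). The strand setting of the counting is not given in the sources used here, so reads of these genes and their overlapping neighbours may not be fully separated. Nme3, which overlaps Mrps34 on the same strand, averaged 0 CPM in every group. The part of the overlap in the low level of Mrps34 was not tested.

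**Figure D1:**
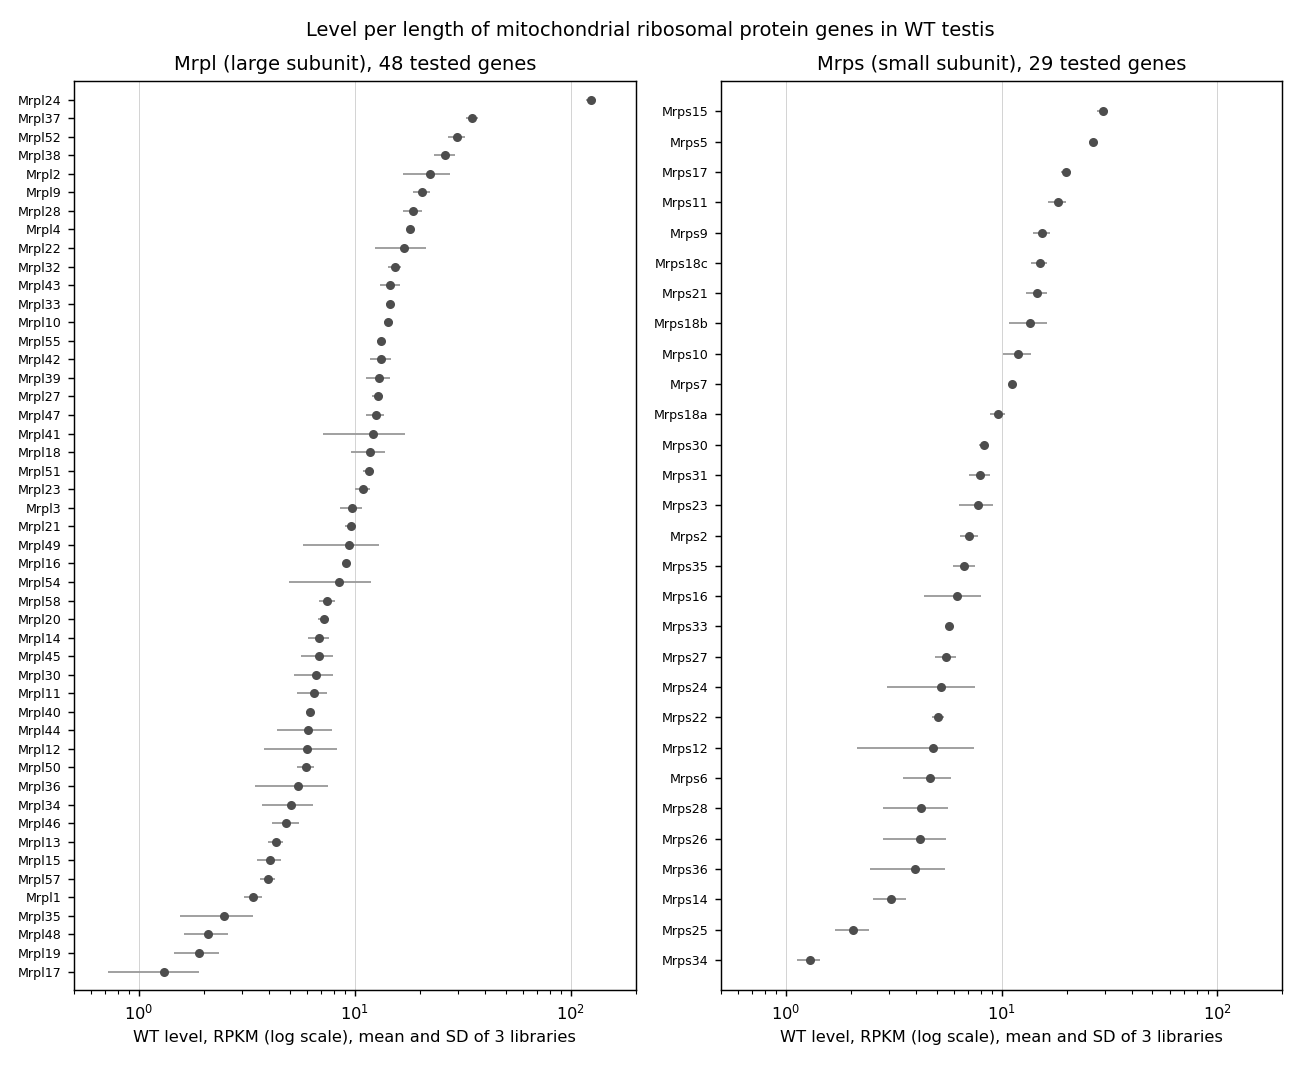
Level per length of the 77 tested genes in WT testis, in RPKM on a log axis, with the 48 Mrpl genes on the left and the 29 Mrps genes on the right; points and bars are the mean and SD of 3 libraries. Mrpl24 at 124 RPKM lies apart from the rest, and Mrps34 at 1.29 RPKM is the lowest.

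Changes were tested with edgeR's quasi-likelihood F-test on the whole table, in 1 fit of the 9 libraries, and a gene was called where the p after Benjamini-Hochberg adjustment across the 17251 tested genes was below 0.05. All adjusted p-values here come from that test unless another tool is named. Of the 78 members 77 were tested, and Mrpl53 was not.

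In the libraries labelled Gm1142KO against WT, 14 of 77 members were called, 9 higher and 5 lower. This is 18.2% of the members, beside 18.5% of all tested genes, so the family was called no more often than the table as a whole. Among all tested genes 10.2% were called higher and 8.38% lower. DESeq2 called 13 members, beside 19.0% of all tested genes, and limma-voom 13, beside 17.4%. The median log2 fold change was 0.16 over the members and -0.01 over all tested genes, and it was 0.03 over the members without replicate 2 of the group labelled Gm1142KO, where 5 members were called higher and 5 lower. In that fit 13.0% of members and 2495 genes of the whole table were called, beside 3196 genes with every library kept. Each count of calls against WT without this library stands beside that smaller number. Without replicate 1 of the group labelled Gm1142KO the member median was 0.25. The groups did not overlap in CPM for 33 members (42.9%, 22 higher and 11 lower), beside 35.9% of all tested genes. Fold changes within the family ran from -1.91 for Mrpl14 to 0.96 for Mrpl43, so members of one particle moved in opposite directions.

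Mrps15 encodes a small subunit protein whose bacterial counterpart binds the ribosomal RNA early in assembly. Its level was 19.5, 21.1 and 19.5 CPM in the libraries labelled Gm1142KO and 53.1, 48.0 and 48.4 CPM in WT. All 3 libraries labelled Gm1142KO lay below every WT library with a gap wider than the spread within either group. Mrps15 fell by 1.32 on the log2 scale (SE 0.16, adjusted p 8.65e-06), the smallest p of the family in this comparison.

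Mrpl14 encodes a large subunit protein at the face that meets the small subunit. It had 6, 13 and 4 counts in the libraries labelled Gm1142KO and 32, 31 and 34 counts in WT, which is 1.16, 3.30 and 0.847 CPM against 6.09, 6.07 and 7.28 CPM. Every library labelled Gm1142KO was lower than every WT library, but replicate 2 was nearer to WT than the other two. Mrpl14 fell by 1.91 on the log2 scale (SE 0.48, adjusted p 0.00826), and the small counts make this the least precise of the larger changes.

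Mrps25, a small subunit protein found only in mitochondria, had 6.18, 5.08 and 8.89 CPM in the libraries labelled Gm1142KO and 15.6, 11.0 and 14.1 CPM in WT. The ranges did not overlap, though the highest library labelled Gm1142KO and the lowest WT library were close, and the log2 fold change was -1.0 (SE 0.28, adjusted p 0.0164). Mrps25 shares 69.8% of its exonic bases with Nr2c2, a nuclear receptor gene whose log2 fold change was 0.06 (adjusted p 0.859). Mrpl50 of the large subunit had 8.10, 5.59 and 8.04 CPM in the libraries labelled Gm1142KO and 11.4, 12.5 and 13.7 CPM in WT, with a log2 fold change of -0.78 (SE 0.27, adjusted p 0.0485). Mrpl32, a large subunit protein that a protease of the mitochondrial inner membrane must trim before it is assembled, had 45.2, 62.5 and 56.7 CPM in the libraries labelled Gm1142KO and 70.6, 79.7 and 78.7 CPM in WT. Its groups did not overlap, and it fell by 0.48 on the log2 scale (SE 0.14, adjusted p 0.0235).

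Among the members that rose in the libraries labelled Gm1142KO, 5 changed by about the same amount. Mrpl42, a large subunit protein found only in mitochondria, had 79.9, 113 and 87.6 CPM in the libraries labelled Gm1142KO and 46.4, 54.8 and 44.7 CPM in WT (log2 fold change 0.94, SE 0.15, adjusted p 2.37e-04). Mrpl13, a core large subunit protein with a bacterial counterpart, had 62.5, 67.6 and 64.6 CPM in the libraries labelled Gm1142KO and 34.0, 36.8 and 31.5 CPM in WT (0.93, SE 0.14, adjusted p 1.35e-04). Both genes were higher in each library labelled Gm1142KO than in any WT library. Mrpl15, also of the bacterial core, had 62.9, 67.6 and 60.5 CPM in the libraries labelled Gm1142KO and 33.7, 30.2 and 38.9 CPM in WT (0.89, SE 0.15, adjusted p 2.96e-04). Mrps22, a small subunit protein found only in mitochondria, had 38.8, 37.6 and 40.9 CPM in the libraries labelled Gm1142KO and 19.2, 20.0 and 21.6 CPM in WT (0.95, SE 0.20, adjusted p 0.00219). Mrpl43, specific to the mitochondrial large subunit, had 39.2, 55.9 and 34.9 CPM in the libraries labelled Gm1142KO and 24.3, 22.3 and 19.7 CPM in WT (0.96, SE 0.20, adjusted p 0.00165). The groups did not overlap for any of these 5 genes, and replicate 2 was the highest library for Mrpl42, Mrpl13, Mrpl15 and Mrpl43.

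**Figure D2:**
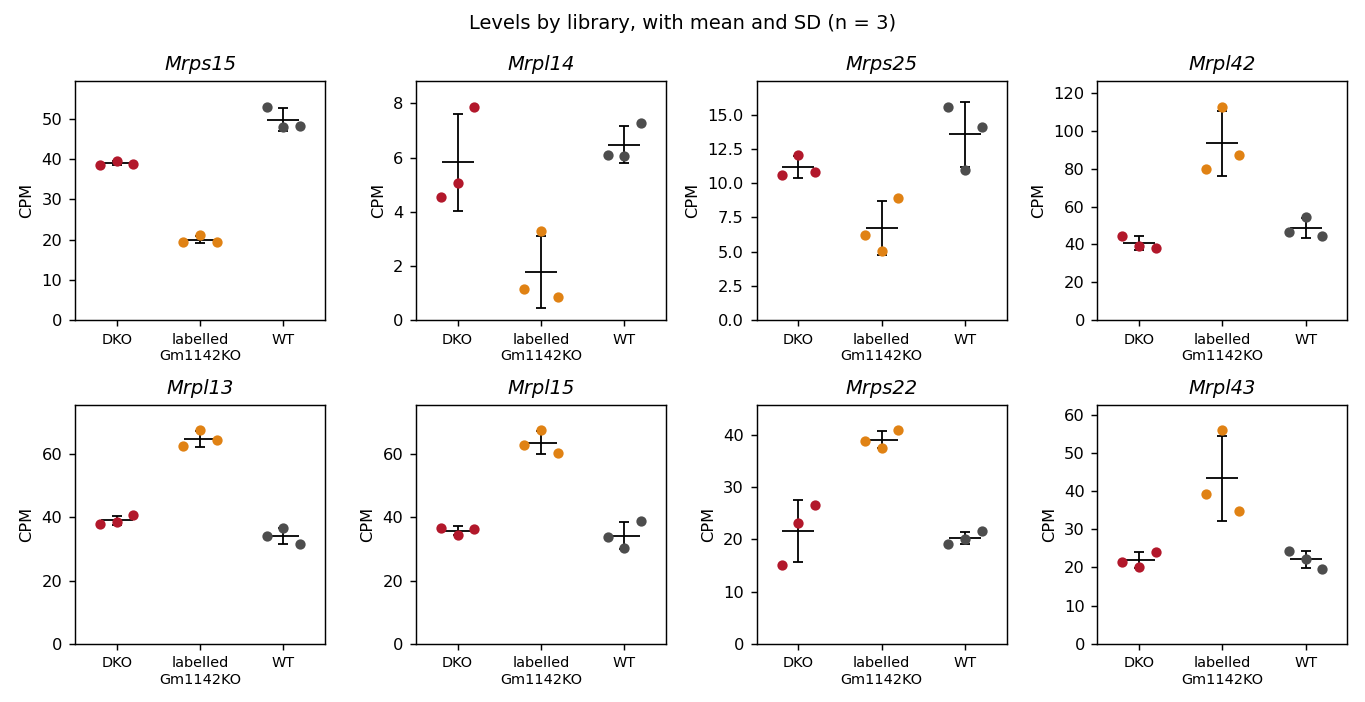
CPM of 8 members in each library, with the mean and SD of 3 libraries per group, for DKO, the libraries labelled Gm1142KO and WT. Mrps15, Mrpl14 and Mrps25 are lowest in the libraries labelled Gm1142KO, the other 5 are highest there, and none of the 8 was called in DKO against WT.

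Smaller rises were called for 4 further members in the libraries labelled Gm1142KO. Mrps9, a small subunit protein of bacterial descent, averaged 122 ± 16.3 CPM in the libraries labelled Gm1142KO and 88.5 ± 7.94 CPM in WT (log2 fold change 0.46, adjusted p 0.0224). Mrpl9 of the large subunit averaged 80.4 ± 15.0 CPM in the libraries labelled Gm1142KO and 55.3 ± 5.01 CPM in WT (0.54, adjusted p 0.0184). Mrps18a averaged 52.1 ± 5.06 CPM in the libraries labelled Gm1142KO and 35.3 ± 2.74 CPM in WT (0.56, adjusted p 0.0157). Mrps18b averaged 42.0 ± 5.42 CPM in the libraries labelled Gm1142KO and 28.3 ± 5.64 CPM in WT (0.57, adjusted p 0.0429). These last 2 genes encode relatives of the same bacterial protein, and mammals place the 2 products in different subunits. Among the 5 most abundant members per length, Mrpl24 had 285 ± 37.6 CPM in the libraries labelled Gm1142KO and 279 ± 15.5 CPM in WT, with a log2 fold change of 0.03 (SE 0.13, adjusted p 0.919).

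The calls were spread over both subunits and both kinds of protein. Of 48 tested Mrpl genes 5 were called higher and 3 lower (16.7%, median log2 fold change 0.19), and of 29 Mrps genes 4 were higher and 2 lower (20.7%, median 0.14), beside 18.5% of all tested genes. Without replicate 2 of the group labelled Gm1142KO, 4 Mrpl genes were higher and 4 lower with a median of 0.05, and 1 Mrps gene was higher and 1 lower with a median of -0.01. Genes called in the whole table fell from 3196 to 2495 in that fit. Of 46 genes with a bacterial counterpart 6 were higher and 3 lower (19.6%), and of 31 tested genes found only in mitochondria 3 were higher and 2 lower (16.1%), both near the 18.5% of all tested genes. This split follows the protein's number in the ribosomal nomenclature and was chosen after values were seen. Mrps24 and Mrps28 were exceptions, placed among genes with a bacterial counterpart despite their numbers. With Mrps30 and Mrps18a moved to the large subunit and Mrps36 left out, the medians were 0.19 and 0.10. Members whose exons overlap another gene were called in 6 of 32 cases (18.8%), and those without overlap in 8 of 45 (17.8%).

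Of the 14 calls, 7 stood whichever of the 9 libraries was left out and under 10 other settings: Mrpl13, Mrpl14, Mrpl15, Mrpl42, Mrpl43, Mrps15 and Mrps22. The number of calls was 8 without replicate 3 of the group labelled Gm1142KO and 9 without WT replicate 1 (10.4% and 11.7% of members). Genes called in the whole table fell as well, from 3196 with every library kept to 2206 and 2037 in these fits. Mrps25 had an adjusted p of 0.0802 without WT replicate 1 and 0.0626 without replicate 2 labelled Gm1142KO. Mrps18a had 0.0754 without WT replicate 2, 0.0635 without WT replicate 1, and 0.0718 and 0.0516 without replicates 3 and 2 labelled Gm1142KO. Mrps9 had 0.127 without WT replicate 1, 0.0609 without WT replicate 3, and 0.100 and 0.0636 without replicates 2 and 3 labelled Gm1142KO. Each of these genes had its direction in every fit.

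The same check for Mrpl9 gave an adjusted p of 0.101 and 0.0537 without WT replicates 2 and 3, and 0.104 and 0.0525 without replicates 2 and 3 labelled Gm1142KO. Mrpl32 had 0.0898 and 0.0777 without WT replicates 2 and 3, and 0.115 and 0.0531 without replicates 1 and 3 labelled Gm1142KO. Mrps18b lost its call without DKO replicate 1 (0.0508), without WT replicates 1 (0.206) and 2 (0.122), and without any one library labelled Gm1142KO (0.0563, 0.149 and 0.0704 for replicates 1, 2 and 3). Mrpl50 kept its call without DKO replicate 2 or 3 only, with an adjusted p of up to 0.154 without replicate 2 labelled Gm1142KO, and 0.0508 in DESeq2. The calls of Mrpl50 and Mrps18b are therefore the weakest of the 14.

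Promoter sequence was read to show what lies at members that went in opposite directions, and is printed for those of the 7 most stable calls that have a window in the sequence table. RefSeq windows on GRCm38.p6, from 250 bases before to 50 bases after a transcript start, were given for 69 members (75 windows) and for 27025 genes in all (32851 windows). Windows were searched on both strands for the strings of 3 factors known to act at nuclear genes of mitochondrial proteins, GCGCA, any base and GCGC for NRF1, CCGGAAG of ETS factors such as GABPA and AAGATGGC of YY1, and for CCAAT, and none of these strings contains another. Stretches from 150 bases before to 30 bases after the start are shown 5′ to 3′ on the gene's strand, with an NRF1 or ETS string in capitals. Mrpl13 and Mrpl15 had no window there. The stretches belong to Mrps15 (chr4:126046778-126046957, plus strand) and Mrpl14 (chr17:45686199-45686378, plus strand), which were lower in the libraries labelled Gm1142KO, and to Mrpl42 (chr10:95501920-95502099, minus strand), Mrpl43 (chr19:45006413-45006592, minus strand) and Mrps22 (chr9:98601650-98601829, minus strand), which were higher.
Mrps15: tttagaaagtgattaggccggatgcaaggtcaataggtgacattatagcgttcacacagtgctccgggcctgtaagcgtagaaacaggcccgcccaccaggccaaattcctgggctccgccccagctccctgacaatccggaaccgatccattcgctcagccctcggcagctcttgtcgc
Mrpl14: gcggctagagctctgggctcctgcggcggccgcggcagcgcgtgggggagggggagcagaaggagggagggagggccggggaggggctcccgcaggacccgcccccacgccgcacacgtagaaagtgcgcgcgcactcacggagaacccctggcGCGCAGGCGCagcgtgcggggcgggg
Mrpl42: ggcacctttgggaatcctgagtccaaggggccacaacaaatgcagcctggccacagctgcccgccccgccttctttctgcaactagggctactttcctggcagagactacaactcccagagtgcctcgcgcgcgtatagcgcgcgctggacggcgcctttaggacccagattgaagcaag
Mrpl43: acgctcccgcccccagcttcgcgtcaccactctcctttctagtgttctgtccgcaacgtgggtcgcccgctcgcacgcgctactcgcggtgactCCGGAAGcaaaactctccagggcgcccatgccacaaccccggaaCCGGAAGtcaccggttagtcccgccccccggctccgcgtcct
Mrps22: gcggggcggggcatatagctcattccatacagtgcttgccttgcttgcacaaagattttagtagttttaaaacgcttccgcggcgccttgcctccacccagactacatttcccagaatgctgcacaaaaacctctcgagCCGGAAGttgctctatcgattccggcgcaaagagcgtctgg

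The Mrps15 and Mrpl42 stretches hold no NRF1, ETS or YY1 string, although the full Mrpl42 window holds a YY1 string outside the stretch shown. Mrpl14 holds the NRF1 string just after the start, and Mrpl43 and Mrps22 hold the ETS string, Mrpl43 at 2 places. Over all members the NRF1 string was in 13 of 75 windows (17.3%), beside 4.6% of all windows. The ETS string was in 26 (34.7% beside 8.86%) and the YY1 string in 12 (16% beside 2.75%). CCAAT, in 30 windows (40%), was near its share of all windows (37.4%). Any of the first 3 strings was in 43 member windows (57.3%), beside 14.7% of all windows. The median GC content was 58.7% in member windows and 52.7% in all windows, and the part of base composition in these shares was not tested. Among members called in the libraries labelled Gm1142KO against WT, all 7 windows of genes that rose and 2 of 5 windows of genes that fell held at least 1 of the 3 strings, while CCAAT was in 3 of the 7 and 4 of the 5. The 2 further genes that rose, Mrpl13 and Mrpl15, had no window, and these counts describe few windows.

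In DKO against WT, 0 of 77 members were called, beside 0.0927% of all tested genes (16 genes, 0.0464% higher and 0.0464% lower). DESeq2 called 0 members, beside 0.365% of all tested genes, and limma-voom 0, beside 0.0870%, and 8 members (10.4%) had an unadjusted p below 0.05 in edgeR, beside 8.95% of all tested genes. The median log2 fold change was -0.01 over members and 0.02 over all tested genes, and it lay on either side of 0, from -0.08 to 0.04, when single libraries were left out. It was 0.00 for Mrpl and -0.04 for Mrps genes. The groups did not overlap in CPM for 16 members (20.8%), beside 15.8% of all tested genes.

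The smallest p belonged to Mrps23, a small subunit protein found only in mitochondria. It had 21.7, 24 and 18.9 CPM in DKO and 13.7, 12.9 and 9.63 CPM in WT, and the ranges were apart (log2 fold change 0.84, SE 0.22, adjusted p 0.215). Mrps33, also of the small subunit, had 3.61, 4.26 and 8.10 CPM in DKO and 9.13, 9.79 and 9.63 CPM in WT (-0.86, SE 0.35, adjusted p 0.472). DKO replicate 3 was close to WT for Mrps33, and both genes missed the threshold. Mrps23 and Mrps33 were chosen after their values were seen. Mrps15 had 38.6, 39.6 and 38.9 CPM in DKO, below the 53.1, 48.0 and 48.4 CPM of WT with no overlap, at a log2 fold change of -0.35 (SE 0.15, adjusted p 0.497). A missed threshold with 3 libraries a group does not show that levels were equal.

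**Figure D3:**
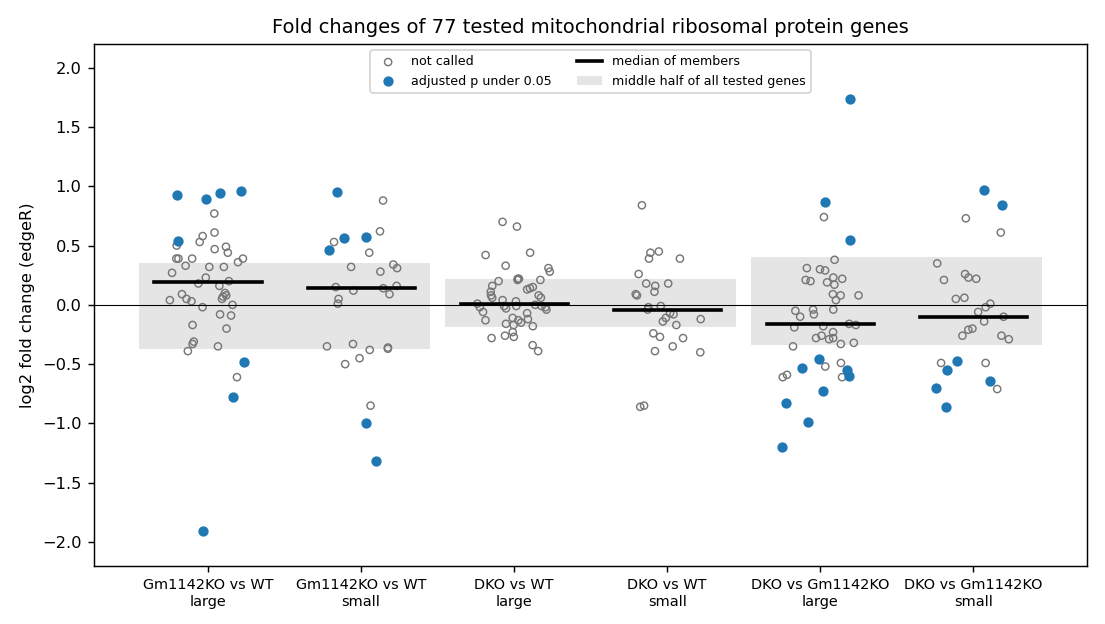
Log2 fold changes of the 77 tested members in the 3 comparisons, by large and small subunit symbol; filled points have an adjusted p under 0.05, black lines are medians and the grey band spans the middle 50% of all tested genes. Filled points lie above and below 0 in both comparisons with the libraries labelled Gm1142KO, and none is filled in DKO against WT.

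In DKO against the libraries labelled Gm1142KO, 18 of 77 members were called, 5 higher and 13 lower. This is 23.4%, beside 19.1% of all tested genes, where 9.07% were higher and 10.1% lower. DESeq2 called 18 members, beside 19.6% of all tested genes, and limma-voom 19, beside 19.7%. The median log2 fold change was -0.14 over members and 0.03 over all tested genes. Without replicate 2 of the group labelled Gm1142KO, 12 members were called and the median was -0.05, with -0.07 for Mrpl and 0.04 for Mrps genes. The median was -0.08 without DKO replicate 2 and -0.22 without replicate 1 labelled Gm1142KO. Without replicate 2 of both groups it was 0.01, with 10 calls, so the lower median of the family in DKO rests on these libraries. The share of all tested genes called without these libraries is not given here. For Mrpl genes 3 were higher and 8 lower of 48 (median -0.16), and for Mrps genes 2 were higher and 5 lower of 29 (median -0.10). The groups did not overlap in CPM for 28 members (36.4%), beside 33.4% of all tested genes. This comparison and that of the libraries labelled Gm1142KO with WT share the 3 libraries labelled Gm1142KO, so a gene that is high or low in those libraries differs in both by construction. Of the 22 members called anywhere, 10 were called in both, 4 in the comparison with WT alone and 8 in this one alone, and whether the 2 comparisons differ for these genes was not tested.

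None of the members called in the libraries labelled Gm1142KO against WT was called in DKO against WT. Mrps15 was higher in DKO than in the libraries labelled Gm1142KO, with a log2 fold change of 0.97 (SE 0.16, adjusted p 2.63e-04). Mrpl14 had 4.56, 5.05 and 7.88 CPM in DKO, all above the 1.16, 3.30 and 0.847 CPM of the libraries labelled Gm1142KO (1.74, SE 0.48, adjusted p 0.0149). Mrpl42 had 44.7, 39.4 and 38.0 CPM in DKO against 79.9, 113 and 87.6 CPM in the libraries labelled Gm1142KO, the largest fall of the family (-1.20, SE 0.16, adjusted p 2.32e-05). The DKO libraries were below all libraries labelled Gm1142KO for Mrpl42 and likewise for the next 4 genes. Mrpl43 had 21.5, 20.1 and 24.1 CPM in DKO (-0.99, SE 0.20, adjusted p 0.00136), and Mrps22 had 15.0, 23.2 and 26.6 CPM (-0.86, SE 0.20, adjusted p 0.00455). Mrpl15 had 36.7, 34.3 and 36.5 CPM in DKO (-0.83, SE 0.15, adjusted p 5.75e-04), and Mrpl13 had 38.0, 38.6 and 40.7 CPM (-0.73, SE 0.14, adjusted p 0.00117). Mrps18a, Mrps9 and Mrpl9 were also called lower in DKO, by -0.64 (adjusted p 0.00632), -0.47 (0.0204) and -0.46 (0.0413).

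The 8 members called here and not in the comparison with WT hold 5 that were lower in DKO. Mrps35, a small subunit protein found only in mitochondria, averaged 44.3 ± 1.93 CPM in DKO and 72.2 ± 6.75 CPM in the libraries labelled Gm1142KO, with WT between at 58.0 ± 6.73 CPM. Its 3 groups did not overlap, and its log2 fold change in DKO was -0.70 (SE 0.14, adjusted p 0.00164). Mrpl4 and Mrpl23 encode large subunit proteins near the exit tunnel for the new peptide. They averaged 38.8 ± 2.86 and 48.0 ± 5.58 CPM in DKO and 59.2 ± 16.2 and 70.0 ± 4.20 CPM in the libraries labelled Gm1142KO (-0.60, adjusted p 0.0178, and -0.55, adjusted p 0.0102). Mrpl3, a core protein near the site of peptide bond formation, averaged 58.7 ± 1.29 CPM in DKO and 84.7 ± 10.1 CPM in the libraries labelled Gm1142KO (-0.53, adjusted p 0.0113). Mrps30 averaged 42.0 ± 4.48 CPM in DKO and 61.6 ± 12.6 CPM in the libraries labelled Gm1142KO (-0.55, adjusted p 0.0185). All 5 genes had groups without overlap in this comparison.

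Higher in DKO were Mrps2, Mrpl46 and Mrpl10. Mrps2, a small subunit protein of bacterial descent, had 23.6, 32.1 and 28.8 CPM in DKO, 15.4, 13.5 and 18.4 CPM in the libraries labelled Gm1142KO and 20.9, 18.6 and 22.5 CPM in WT (log2 fold change 0.84 in DKO against the libraries labelled Gm1142KO, SE 0.20, adjusted p 0.00687). DKO was the highest group for Mrps2, without overlap with either of the others. Mrpl46 of the large subunit averaged 11.1 ± 1.46 CPM in DKO and 6.08 ± 0.961 CPM in the libraries labelled Gm1142KO (0.87, SE 0.29, adjusted p 0.0421). Mrpl10, a protein of the stalk that receives translation factors, averaged 27.4 ± 2.43 CPM in DKO and 18.7 ± 2.33 CPM in the libraries labelled Gm1142KO (0.55, SE 0.19, adjusted p 0.0439).

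Of these 18 calls, 9 stood whichever library was left out, and 7 also under 10 other settings: Mrpl13, Mrpl15, Mrpl42, Mrpl43, Mrps15, Mrps22 and Mrps35. Mrps18a had an adjusted p of 0.0517 and Mrps2 of 0.0950 without replicates 2 of DKO and of the group labelled Gm1142KO together. Mrpl14 had an adjusted p of 0.0555 without DKO replicate 3, and 0.0541 and 0.0747 without replicates 1 and 3 labelled Gm1142KO. Mrps30 had 0.0699 and 0.0571 without DKO replicates 1 and 2, and 0.110 without replicate 2 labelled Gm1142KO. Mrpl4 had 0.0617 without DKO replicate 1 and 0.135 without replicate 2 labelled Gm1142KO. Mrpl23 had 0.0552 without DKO replicate 2, and Mrpl3 had 0.0527 without replicate 3 labelled Gm1142KO. Mrps9 lost its call without DKO replicates 1 (0.0512) and 2 (0.102) and without replicates 2 (0.0856) and 3 (0.0522) labelled Gm1142KO. Mrpl46 was called only without WT replicate 2 or 3, Mrpl9 only without DKO replicate 3 or replicate 1 labelled Gm1142KO, and Mrpl10 in none of the 9 fits, with adjusted p up to 0.115, 0.193 and 0.142. No member reversed its direction in any of these fits.

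**Figure D4:**
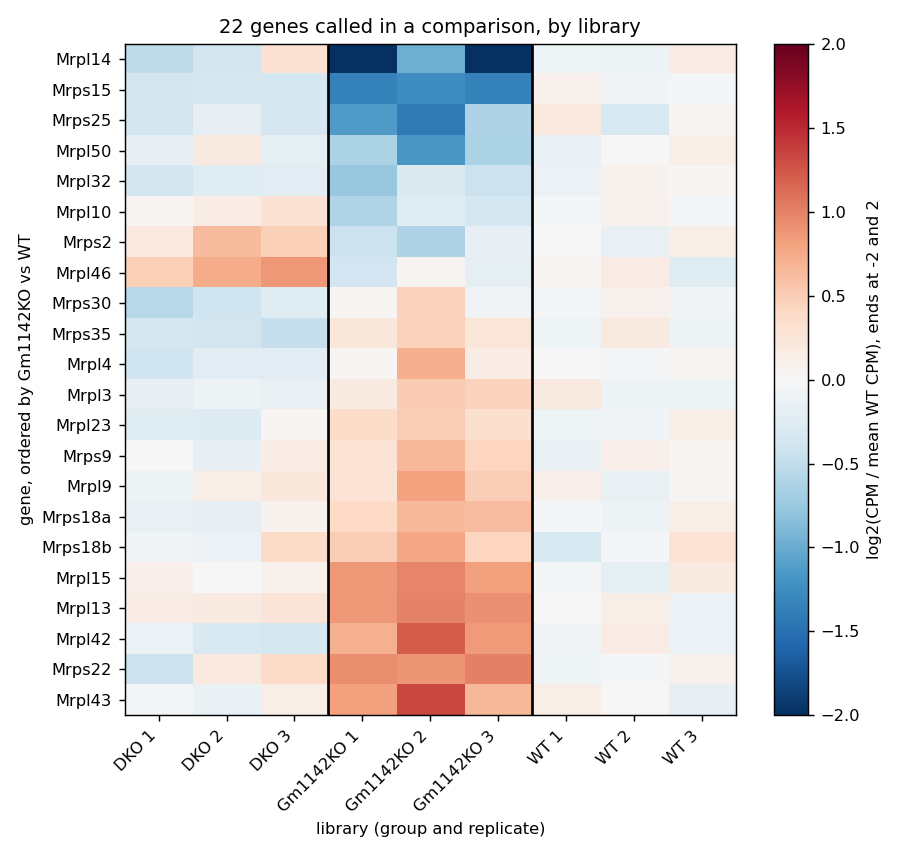
Log2 ratio of CPM to the mean WT CPM for the 22 members called in a comparison, by library, with colours ending at -2 and 2; genes are ordered by the fold change of the libraries labelled Gm1142KO against WT. The libraries labelled Gm1142KO are low for the genes at the top, from Mrpl14 on, and high for those at the bottom, up to Mrpl43.

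Summed over a subunit, levels differed less than those of single genes. The 49 Mrpl genes summed to 1615, 1537 and 1777 CPM in DKO, to 1703, 2166 and 1848 CPM in the libraries labelled Gm1142KO, and to 1630, 1683 and 1684 CPM in WT. The 29 Mrps genes summed to 937, 893 and 1023 CPM in DKO, to 970, 1205 and 1048 CPM in the libraries labelled Gm1142KO, and to 953, 1010 and 1021 CPM in WT. Replicate 2 of the libraries labelled Gm1142KO was the highest library for both sums. For Mrps genes all groups overlapped, and for Mrpl genes only the libraries labelled Gm1142KO and WT did not, by a gap smaller than the spread within either group. The mean sum over all members was 2594 ± 188 CPM in DKO, 2980 ± 357 CPM in the libraries labelled Gm1142KO and 2660 ± 67.8 CPM in WT (SD, n = 3), and 2784 ± 158 CPM in the libraries labelled Gm1142KO without replicate 2 (n = 2). As a share of raw counts, without the TMM scaling, the members made up 0.272 ± 0.0130% in DKO, 0.275 ± 0.0128% in the libraries labelled Gm1142KO and 0.274 ± 0.00551% in WT (SD, n = 3). The groups overlapped in this share, which is of all counts, mitochondrially encoded ones included. With mitochondrially encoded genes left out and TMM scaling kept, the Mrpl sum averaged 2412 ± 214 CPM in DKO, 2806 ± 323 CPM in the libraries labelled Gm1142KO and 2465 ± 39.3 CPM in WT. The Mrps sum then averaged 1396 ± 117, 1582 ± 163 and 1472 ± 49.7 CPM in the same order. The part of the scaling in the higher mean sum was not tested. The sum of Mrpl over that of Mrps genes was 1.72, 1.72 and 1.74 in DKO, 1.76, 1.80 and 1.76 in the libraries labelled Gm1142KO, and 1.71, 1.67 and 1.65 in WT. That ratio was highest in the libraries labelled Gm1142KO without overlap between any of the groups. With Mrps30 and Mrps18a placed in the large subunit and Mrps36 left out, the ratio averaged 1.98 ± 0.0153 in DKO, 2.12 ± 0.0346 in the libraries labelled Gm1142KO and 1.96 ± 0.0404 in WT (SD, n = 3). The libraries labelled Gm1142KO were again the highest, but DKO and WT overlapped, and neither ratio was given a test.

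Mitochondrially encoded genes took 29.6%, 27.1% and 32.9% of counts in DKO, 32.5%, 38.9% and 35.2% in the libraries labelled Gm1142KO, and 29.4%, 32.7% and 30.1% in WT. This share covers all of them, the ribosomal and transfer RNA genes as well as the messages this ribosome translates. The order of the libraries by this share was the same as by the member sum in DKO and in the libraries labelled Gm1142KO. In WT it was not, since replicate 2 had the highest share and replicate 3 the highest sum. The part of these counts in the member values was not tested beyond a fit without them, which gave the same directions and sides of the threshold for the counts of calls and medians.

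**Figure D5:**
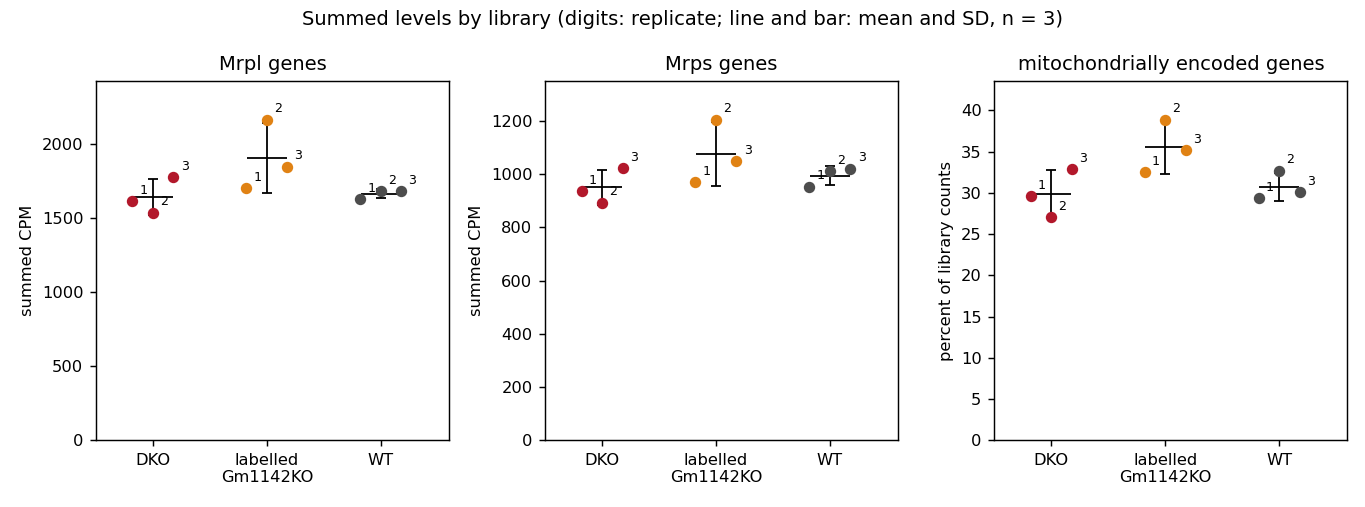
Summed CPM of Mrpl genes and of Mrps genes, and the percent of counts from mitochondrially encoded genes, by library with the replicate number, with mean and SD of 3 libraries. Replicate 2 of the libraries labelled Gm1142KO is the highest point in each panel, at 2166 CPM, 1205 CPM and 38.9%.

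Neighbouring genes were read beside the called members, since 23 members share a start region with a protein-coding gene that runs the other way within 1000 bases. Twnk, the mitochondrial DNA helicase gene, overlaps Mrpl43 on the opposite strand over 33.4% of the exonic bases of Mrpl43. It averaged 19.7 ± 1.85 CPM in DKO, 13.4 ± 1.63 CPM in the libraries labelled Gm1142KO and 22.5 ± 3.53 CPM in WT, and was lower in the libraries labelled Gm1142KO than in WT (log2 fold change -0.75, adjusted p 0.0187), whereas Mrpl43 was higher (0.96). Mtbp, which overlaps Mrpl13, was higher like it, at 54.5 ± 6.94 CPM in the libraries labelled Gm1142KO and 31.9 ± 1.21 CPM in WT (0.77, adjusted p 0.00175). Ppp1r10, which starts next to Mrps18b in the other direction, was lower (-0.83, adjusted p 0.0132) while Mrps18b was higher (0.57). Tmem63b, which overlaps Mrpl14, had a log2 fold change of 0.32 (adjusted p 0.182). Of these neighbours Mtbp, Ppp1r10, Tmem63b and Nr2c2 were chosen after their values were seen.

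Other genes of mitochondrial translation were read from lists by role. In the libraries labelled Gm1142KO against WT, 8 of 26 tested genes for mitoribosome assembly were called, 5 higher and 3 lower (30.8%, beside 18.5% of all tested genes), and 3 were higher and 3 lower without replicate 2 of that group. Malsu1, whose human product binds the Mrpl14 protein and keeps the subunits apart, had 35.9, 31.2 and 39.4 CPM in DKO, 87.6, 123 and 90.4 CPM in the libraries labelled Gm1142KO and 26.4, 27.6 and 28.2 CPM in WT. The libraries labelled Gm1142KO were far above both other groups, and Malsu1 rose by 1.87 on the log2 scale against WT (SE 0.16, adjusted p 1.31e-07). Mterf3, which is needed for ribosome biogenesis in mouse mitochondria, rose by 1.15 (SE 0.15, adjusted p 2.22e-05). Mrm1, a ribosomal RNA methyltransferase, had a log2 fold change of -1.19 (adjusted p 0.00648), and Rpusd4, a pseudouridine synthase, of -0.95 (adjusted p 0.0126). The assembly genes thus split in both directions, as the members did.

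In the lists for the use of the ribosome, 2 of 16 tested translation factor genes rose in the libraries labelled Gm1142KO and 0 fell (12.5%, beside 18.5% of all tested genes), also without replicate 2. These were Oxa1l, which inserts new proteins into the inner membrane (0.71, SE 0.15, adjusted p 0.00211), and Gfm1, an elongation factor (0.63, SE 0.15, adjusted p 0.00469). Of 17 aminoacyl-tRNA synthetase genes 4 rose and 1 fell (29.4%), and 3 rose and 1 fell without replicate 2. They include Lars2 (0.95, adjusted p 0.00256), Aars2 (0.74, adjusted p 0.0485) and Tars2 (0.52, adjusted p 0.0103), with Yars2 the one that fell (-0.95, adjusted p 7.77e-04). Of 5 ribosome proteins whose symbols do not start with Mrp, Ptcd3 of the small subunit was called (0.43, adjusted p 0.0310), and 0 were called without replicate 2.

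Of 18 genes for the upkeep and transcription of mitochondrial DNA and its RNA, 6 rose and 2 fell in the libraries labelled Gm1142KO (44.4%, beside 18.5% of all tested genes), and 4 rose and 2 fell without replicate 2. Ssbp1, the protein that coats single-stranded mitochondrial DNA, had 45.1, 48.0 and 51.1 CPM in DKO, 174, 201 and 170 CPM in the libraries labelled Gm1142KO and 47.4, 60.3 and 48.1 CPM in WT (log2 fold change 1.80 against WT, SE 0.14, adjusted p 1.98e-08). Its libraries labelled Gm1142KO stood above all 6 others. Mtpap, the mitochondrial poly(A) polymerase, rose by 1.09 (SE 0.22, adjusted p 0.00182), and Trmt10c, a subunit of mitochondrial RNase P, fell by 1.21 (SE 0.26, adjusted p 0.00257). Of 9 tested regulators of mitochondrial biogenesis 0 were called in edgeR, DESeq2 or limma-voom, with 2 at an unadjusted p below 0.05 in edgeR. Nrf1, whose product binds the NRF1 string, had a log2 fold change of 0.00 (SE 0.18, adjusted p 0.995), and Yy1 of 0.39 (SE 0.14, adjusted p 0.0654). Gabpb2 had -0.35 (SE 0.14, adjusted p 0.0986) and Gabpa -0.32 (SE 0.17, adjusted p 0.205). Of the 9 regulators 4 had a positive and 5 a negative fold change. Nrf1, Yy1, Gabpb2 and Gabpa were chosen after their values were seen.

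In DKO against the libraries labelled Gm1142KO, the assembly list had 3 genes higher and 5 lower (30.8%), the translation factors 1 higher and 2 lower (18.8%), the synthetases 1 higher and 5 lower (35.3%), and the DNA and RNA list 1 higher and 4 lower (27.8%), beside 19.1% of all tested genes. Without replicate 2 labelled Gm1142KO these counts were 3 and 4, 1 and 2, 1 and 3, and 1 and 2. Malsu1 fell by 1.51 (adjusted p 1.85e-06) and Ssbp1 fell by 1.92 (adjusted p 1.05e-08) on the log2 scale, while Mrm1 rose by 1.20 (adjusted p 0.00616) and Trmt10c by 1.35 (adjusted p 0.0010). Gabpa, an ETS factor gene, was the 1 of 9 regulators called (0.48, SE 0.17, adjusted p 0.0490), whereas DESeq2 called 0 of the 9 and limma-voom 1, and edgeR called 0 without replicate 2 labelled Gm1142KO. In DKO against WT, 0 genes of these lists were called in edgeR, DESeq2 or limma-voom. An unadjusted p below 0.05 in edgeR was seen there for 3 assembly genes, 1 translation factor gene, 1 synthetase gene, 1 regulator, 1 of the 5 other ribosome proteins and 0 genes of the DNA and RNA list.

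Beside the mitochondrial family, the 83 genes of the cytosolic ribosome had 17 called higher and 0 lower in the libraries labelled Gm1142KO against WT, with a median of 0.20. This is 20.5%, beside 18.5% of all tested genes, and 10.2% of all tested genes were called higher. The nuclear genes of oxidative phosphorylation, 78 tested, had 16 higher and 5 lower (26.9%), with a median of 0.28. The mitochondrial ribosome genes, with 9 higher and 5 lower and a median of 0.16, had calls in both directions, and differences between the 3 lists were not tested. Protein-coding genes within the members' range of WT levels were called in 19.1% of 12513 cases, with a median of -0.03. In 4 classes of exonic length, from short to long, the member medians were 0.07, 0.18, 0.36 and 0.15, beside 0.05, -0.02, -0.03 and -0.02 for all tested genes.

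Markers of testis cell types moved between the groups as well, and their part in the member changes was not tested. The 14 germ cell markers summed to 822.1 to 982.1 CPM in DKO, 467.7 to 604.8 CPM in the libraries labelled Gm1142KO and 533.6 to 614.0 CPM in WT. DKO was above both other groups without overlap. In DKO against WT 2 of the 14 were called, both higher (14.3%, beside 0.0927% of all tested genes). In DKO against the libraries labelled Gm1142KO 6 were higher and 0 lower (42.9%, beside 19.1%), and 1 was higher without replicate 2 labelled Gm1142KO. In the libraries labelled Gm1142KO against WT 2 germ cell markers were higher and 1 lower (21.4%, beside 18.5%).

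The 8 Leydig cell markers summed to 557.1 to 758.4 CPM in DKO, 366.5 to 450.2 CPM in the libraries labelled Gm1142KO and 618.4 to 872.7 CPM in WT. The libraries labelled Gm1142KO were below both other groups without overlap. These sums hold Fdxr, chosen after its values were seen. It averaged 209 ± 4.54 CPM in DKO, 104 ± 8.81 CPM in the libraries labelled Gm1142KO and 244 ± 15.8 CPM in WT. Whether the groups stay apart without Fdxr was not tested. Of 7 tested Leydig markers 3 were lower and 0 higher in the libraries labelled Gm1142KO against WT (42.9%, beside 18.5% of all tested genes). In DKO against the libraries labelled Gm1142KO 3 were higher and 0 lower (42.9%, beside 19.1%). The 3 were Cyp17a1, Hsd3b1 and Fdxr in both comparisons, while Cyp11a1, Star, Lhcgr and Nr5a1 were called in neither. Cyp17a1 had the largest log2 fold change of the list against WT, -2.64. Insl3 of Leydig cells was too low to be tested in any group. Cyp17a1 had 123, 23.2 and 118 CPM in DKO, 13.7, 38.9 and 7.62 CPM in the libraries labelled Gm1142KO, and 164, 156 and 46.0 CPM in WT. DKO replicate 2 lay within the range of the libraries labelled Gm1142KO, while all WT libraries were above that range. The 12 Sertoli markers summed to 1970 to 2615 CPM in DKO, 1920 to 2143 CPM in the libraries labelled Gm1142KO and 2208 to 2447 CPM in WT. The libraries labelled Gm1142KO were below WT without overlap, while DKO overlapped both other groups. Of these 12, 4 were lower and 1 higher in the libraries labelled Gm1142KO against WT (41.7%, beside 18.5% of all tested genes). In DKO against the libraries labelled Gm1142KO 6 of the 12 were called, 5 higher and 1 lower, beside 19.1% of all tested genes.

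Red cell markers summed to 62.00 to 82.89 CPM in DKO, 95.05 to 135.9 CPM in the libraries labelled Gm1142KO and 68.67 to 83.66 CPM in WT, so that the libraries labelled Gm1142KO were above both other groups. Of 5 tested red cell markers 1 was called higher in the libraries labelled Gm1142KO than in WT (20.0%, near the 18.5% of all tested genes). In DKO against the libraries labelled Gm1142KO 2 were called lower (40.0%, beside 19.1%). Markers of the epididymis and ducts summed to 79.72 to 110.7 CPM in DKO, 118.9 to 148.0 CPM in the libraries labelled Gm1142KO and 136.7 to 166.9 CPM in WT, with DKO below both other groups. In DKO against WT 0 of 10 were called by edgeR (beside 0.0927% of all tested genes), 1 by DESeq2 (beside 0.365%) and 0 by limma-voom. An unadjusted p below 0.05 in edgeR was seen there for 4 (40.0%, beside 8.95%). Macrophage markers summed to 57.52 to 82.89 CPM in DKO, 52.08 to 59.24 CPM in the libraries labelled Gm1142KO and 62.48 to 74.75 CPM in WT. For endothelial and peritubular myoid markers the summed levels of all groups overlapped. In DKO against the libraries labelled Gm1142KO, however, 1 of 8 endothelial markers was called higher and 2 lower (37.5%, beside 19.1% of all tested genes). Without replicate 2 labelled Gm1142KO 0 were higher and 3 lower. In the libraries labelled Gm1142KO against WT 0 of 8 endothelial markers were called, and 1 of 6 peritubular myoid markers was lower (16.7%, beside 18.5%).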

How the data were processed

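Polyadenylated RNA of testes from postnatal day 7 was sequenced in 9 libraries, grouped by their titles. The deposited table holds raw counts per gene, and cutadapt, Bowtie2, STAR, featureCounts and the build mm39 are named in the submitters' processing notes. Strand setting, annotation release and the handling of reads with several targets are not given in the sources used here. Symbols, exonic lengths and overlaps came from GENCODE M21 on GRCm38, so no gene coordinates are given from it.

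Counts were tested with edgeR 4.0.16 in R 4.3.3: filterByExpr at its defaults (count of at least 10, total of at least 15), TMM scaling, 1 quasi-likelihood fit with a term per group (6 residual degrees of freedom) and Benjamini-Hochberg adjustment over 17251 genes. The standard error is the log2 fold change over the square root of F. The members and gene lists were chosen with earlier results of these data known. Named are the targets, all called members, the 5 highest and 5 lowest WT levels per length, members that failed the filter and up to 4 called genes per list and comparison; exceptions are stated. Alternatives were DESeq2 1.42.0, limma-voom (limma 3.58.1), DESeq2's size factors, no filter and a stricter one, a replicate block, a fit of only the groups compared, fits without mitochondrially encoded genes or without length and GC trends (known for 97.4% of genes), and leaving out libraries. The test was also run on simulated counts, with changes planted in DKO only and no outlying library. That run does not show how the test behaves with such libraries, and its outcome is not used here. Of the list entries Mrpp3 did not match a symbol, and Ict1 is an older name of a member. No 2 libraries of a group were near-identical (chi-square per degree of freedom 3.75 to 11.0).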

Additional observations from a re-analysis of the deposited data

How the results depend on the processing

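Leaving out 1 library at a time kept 52 of 54 counts and medians within the set limits. Member calls then ranged from 8 to 16 in the libraries labelled Gm1142KO against WT, where the genes called in the whole table ranged from 2037 to 3380. They stayed at 0 in DKO against WT and ranged from 12 to 17 in DKO against the libraries labelled Gm1142KO. The medians ranged from 0.03 to 0.25, from -0.08 to 0.04 and from -0.22 to -0.05 in these 3 comparisons. Of 78 values under other settings 76 stayed within the same limits, which are 1.5 times for a count and the SD between libraries for a median (0.14, 0.07 and 0.15 in these comparisons) or a summed level. Those limits are wide: without replicates 2 of DKO and of the group labelled Gm1142KO, the median was 0.03 in the libraries labelled Gm1142KO against WT and 0.03 in DKO against WT, where it had been 0.16 and -0.01. The exceptions came without replicates 2 of DKO and of the group labelled Gm1142KO together, where DKO against the libraries labelled Gm1142KO had 10 calls and a median of 0.01, and the cause was not tested. Without replicate 2 labelled Gm1142KO alone, the calls against WT were 5 higher and 5 lower, beside 2495 genes called in the whole table and 3196 with every library kept. DESeq2 gave 13, 0 and 18 calls and limma-voom 13, 0 and 19. With the replicate number as a block, the calls were 14, 0 and 15 and the medians 0.16, -0.01 and -0.15, but the numbers do not pair the libraries: deviations of same-numbered libraries correlated at -0.297 to 0.109 over 9 pairs, and others at -0.224 to 0.207 over 18. Under that block Mrpl50 lost its call against WT (adjusted p 0.0704), and Mrpl10, Mrpl46 and Mrpl9 (0.0583, 0.0586 and 0.0568) lost theirs in DKO against the libraries labelled Gm1142KO. Genes near 1 CPM, such as Mrpl14 at 4 to 13 counts in the libraries labelled Gm1142KO, are limited by depth.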
